A study of Mus musculus with 9 samples.

Results

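Gnaz and Rsph14 are a pair of mouse genes that occupy the same stretch of chromosome 10 on opposite strands. They were selected by name as 2 of the 23074 genes in the count table, because an earlier look at these data had shown Gnaz higher in Rfx2-/- testes and because its span overlaps that of Rsph14. The contrast between genotypes therefore served to choose them, and their own differences between genotypes are given as a description without a test. RNA was sequenced from whole decapsulated testes at postnatal days 29 to 30, and each of the 9 mice, of which 5 were wild type and 4 Rfx2-/-, gave 1 library. All mice were of the mixed strain background C57BL/6, 129/Sv and FVB/N. In the Rfx2-/- mice, per the study's methods, exon 7 of Rfx2, which encodes much of the DNA-binding domain, was deleted in the germ line with an ACTB-Cre transgene, so that every cell type of the testis lacked it, and the mixed background line kept its neomycin cassette. The wild type mice came from the same line, as littermates of the knockouts if available. Rfx2-/- spermatids arrest before they elongate.

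RFX2 is a DNA-binding regulator that recognises the X-box, a motif present in the promoters of many genes of cilia and flagella. Rsph14 (older name Rtdr1) encodes a protein of the radial spoke, the T-shaped complex that reaches from the outer doublets of the axoneme to its central pair and that helps to control flagellar beating in sperm. Gnaz encodes Gαz, an alpha subunit of the inhibitory (Gi) family of heterotrimeric G proteins. Gαz lowers the activity of adenylyl cyclases, is insensitive to pertussis toxin, and is best known from neurons, platelets and pancreatic islets. Its signal ends when RGS proteins speed up the hydrolysis of GTP, and Rgs17, Rgs19 and Rgs20 form the RGS subfamily known to act on it.

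The arrangement of the locus was taken from the GENCODE annotation of GRCm38. Rsph14 (ENSMUSG00000009070) lies on the minus strand at chr10:74957477-75032586 and has 8 merged protein coding exons with 2479 bases. Gnaz (ENSMUSG00000040009) lies on the plus strand at chr10:74967177-75016907 and has 4 such exons with 3612 bases. The whole of Gnaz sits inside a single intron of Rsph14, with 5 Rsph14 exons on one side of it and 3 on the other. The genes share 0 exonic bases, and the nearest exons are 5396 bases apart. Their start sites are 65.4 kb apart, and the last base of Gnaz is 15679 bases from the Rsph14 start. Because reads were counted over exons, no read lying within the exons of Rsph14 could be counted for Gnaz or the reverse. Reads from an unspliced Rsph14 transcript that crossed the exons of Gnaz would be counted for Gnaz if strand was not used, and the use of strand is not given in the sources used here, so those reads cannot be told apart from Gnaz.

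**Figure D1:**
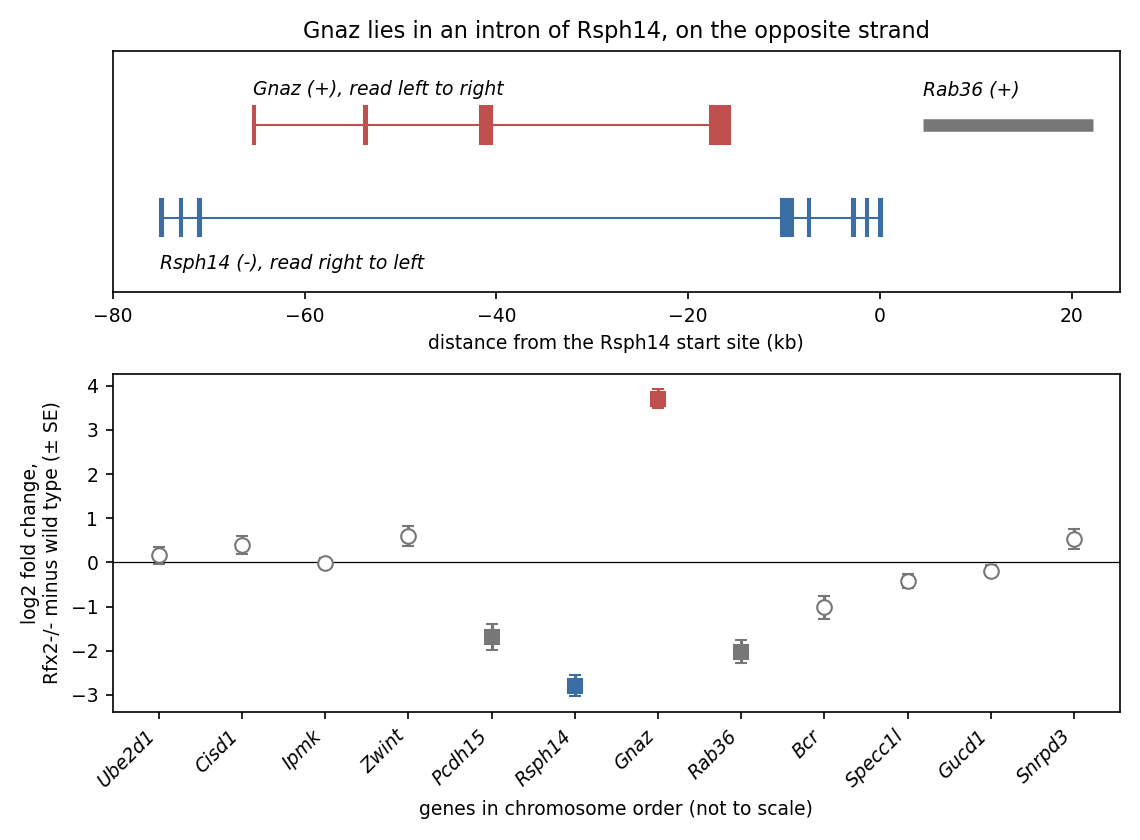
Upper panel, exons (boxes, drawn at least 0.25 kb wide) and introns (lines) of Gnaz and Rsph14 and the span of Rab36, by distance in kb from the Rsph14 start site. Lower panel, log2 fold change between Rfx2-/- and wild type (± SE) of the pair and of the 5 nearest tested genes on each side, with coloured squares for the pair, grey squares for neighbours called and open circles for neighbours not called. Gnaz lies at 3.71, Rsph14 at -2.79 and the neighbours between -2.02 and 0.60.

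The promoter of Rsph14 is shown because its letters include a complete X-box. The 250 bases before the start site (RefSeq, GRCm38.p6, chr10:75032587-75032836, minus strand) are printed 5′ to 3′ with the match in capitals.
Rsph14 promoter: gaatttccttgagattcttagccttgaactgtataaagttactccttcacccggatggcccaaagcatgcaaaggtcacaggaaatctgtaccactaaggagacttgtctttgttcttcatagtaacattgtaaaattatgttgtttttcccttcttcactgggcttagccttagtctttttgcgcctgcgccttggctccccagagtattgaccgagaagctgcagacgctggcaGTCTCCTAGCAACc
The motif searched was GTNNCC followed, after 0 to 3 bases of any kind, by NGNAAC, on both strands of the 300 bases around each start site. The single match, GTCTCCTAGCAAC, occupied chr10:75032588-75032600 and began 14 bases upstream of the start site, at position -14. From the other Rsph14 start site in the promoter table it began at position -47. The same motif was present in 1726 of 32851 mouse promoters of this length (5.25%). A match of letters is a description and not a site. Of the pair, only Rsph14 had an entry in the promoter table. In the study's own list of genes with an RFX2 promoter peak by chromatin immunoprecipitation, used here as a label only, both genes of the pair appear, as does their neighbour Rab36. None of the other neighbours compared below, Pcdh15 among them, is on it. The share of all genes on that list was not worked out here, so nothing is read from the membership.

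The libraries held between 13574764 and 15193330 counts, except for Rfx2-/- replicate 1 with 28800855, and 15613 genes had enough counts to be tested. Rfx2 itself had 471 to 624 CPM (counts scaled to library size with TMM factors) in wild type and 199, 61.5, 151 and 173 CPM in Rfx2-/- replicates 1 to 4, 26.6% of the wild type mean, with no overlap. Rfx2-/- replicate 2 stood apart by exon length, with a median log2 deviation from the other knockout libraries of 0.57 for tested genes under 2 kb and -0.88 for those over 8 kb. For genes of 2 to 4 kb, the class that holds both Gnaz and Rsph14, this median was 0.05. The deviations of the pair itself in that library were -0.57 for Gnaz and 0.37 for Rsph14. Gnaz, with 3612 exon bases, is the longer of the pair, and Rsph14 has 2479. Their deviations therefore had the signs seen for long and for short genes, and the part of exon length in them was not tested. Wild type replicate 3 had the lowest summed level of round spermatid markers of its genotype, 993 CPM against 1403 to 1559 CPM in the others, and of elongating spermatid markers, 6943 CPM against 10860 to 15230 CPM.

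Gnaz transcripts were scarce in wild type testes and 13.1 times as abundant in Rfx2-/- testes. In wild type replicates 1 to 5 the gene had 64, 95, 78, 62 and 66 counts, or 4.89, 7.36, 5.19, 4.57 and 5.15 CPM. In Rfx2-/- replicates 1 to 4 it had 2245, 771, 969 and 1418 counts, or 74.6, 51.6, 66.0 and 92.8 CPM. Every knockout library lay far above the highest wild type library. The means were 5.43 ± 1.10 CPM (SD, n = 5) and 71.2 ± 17.2 CPM (SD, n = 4), and the fitted log2 fold change was 3.71 (SE 0.20). Of all tested genes 0.826% were called higher, and groups failed to overlap with Rfx2-/- on the high side in 6.16%. Only 5 of the 129 genes called higher had a larger fold change, where the median log2 fold change of such genes was 1.55. Since whole testes were sequenced, more RNA per cell and more cells of a type that carries it cannot be told apart, and the same holds for every decrease.

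Rsph14, the host gene, differed in the other direction, and its mean in Rfx2-/- was 6.97-fold lower. Wild type replicates 1 to 5 had 286, 280, 209, 382 and 347 counts, or 21.9, 21.7, 13.9, 28.2 and 27.1 CPM. The knockout libraries had 110, 59, 34 and 46 counts, or 3.65, 3.95, 2.32 and 3.01 CPM, all below the lowest wild type library. The means were 22.5 ± 5.66 CPM (SD, n = 5) and 3.23 ± 0.724 CPM (SD, n = 4), 14.3% of wild type, and the fitted log2 fold change was -2.79 (SE 0.24). The transcript was therefore reduced but still detected in each knockout library. Genes called lower made up 3.68% of those tested, and groups failed to overlap with Rfx2-/- on the low side in 9.7%. A larger decrease was fitted for 163 of the 575 genes called lower, whose median log2 fold change was -1.91.

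**Figure D2:**
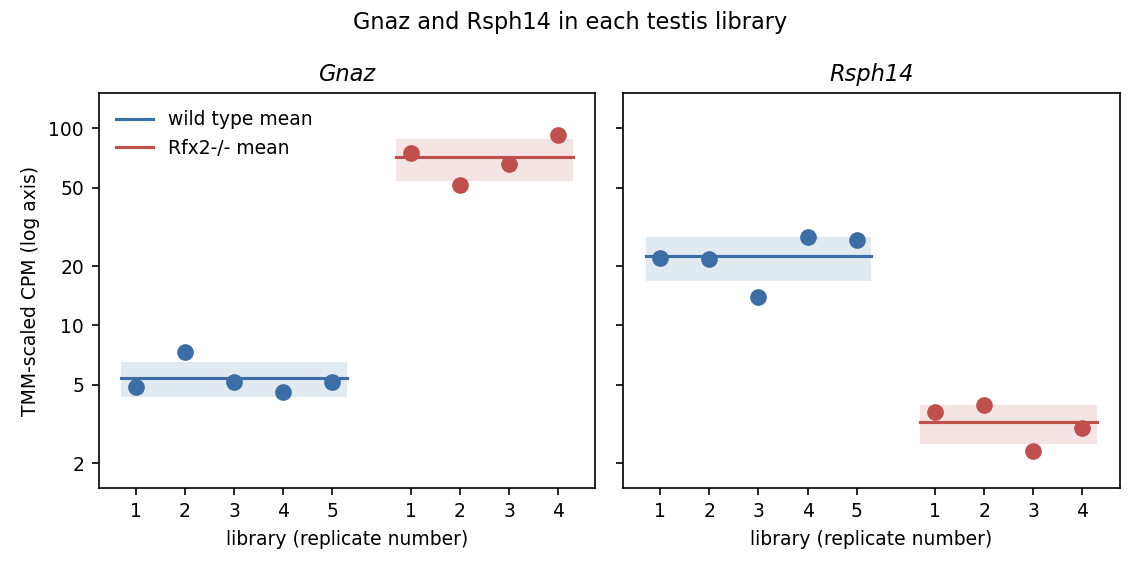
TMM-scaled CPM (log axis) of Gnaz and Rsph14 in each wild type (blue) and Rfx2-/- (red) library; lines are group means and shaded bands ± 1 SD. Gnaz lies between 4.57 and 7.36 CPM in wild type and between 51.6 and 92.8 CPM in Rfx2-/-, and Rsph14 between 13.9 and 28.2 CPM and between 2.32 and 3.95 CPM.

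The pair thus exchanged its order. Per kb of exon, Rsph14 was the more abundant transcript in every wild type library, by 3.90 to 8.98 times (mean 6.27 ± 2.17, SD, n = 5). Gnaz was the more abundant per kb in every knockout library, by 8.97 to 21.2 times (mean 15.9 ± 5.56, SD, n = 4). On the same scale Gnaz moved from 1.504 to 19.7 CPM per kb, from above 23.1% of tested genes to above 75.2%. Rsph14 moved from 9.09 to 1.30 CPM per kb, from above 57.7% of tested genes to above 21.1%. The difference in level was larger for the intronic gene than for its host, and the sum of both was 7.04 to 12.6 CPM per kb in the wild type libraries and 15.9 to 26.9 CPM per kb in the knockout libraries.

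The share of the pair's counts that belonged to Gnaz does not depend on library scaling. In wild type replicates 1 to 5 it was 18.3%, 25.3%, 27.2%, 14.0% and 16.0%. In Rfx2-/- replicates 1 to 4 it was 95.3%, 92.9%, 96.6% and 96.9%. Exact 95% binomial intervals ran from 10.9% to 32.7% over the wild type libraries and from 90.9% to 97.7% over the knockout libraries. Each interval comes from a single library, so it covers counting error alone and not the spread between mice. The reads carry no molecular identifiers, so reads copied in amplification were not set apart. The means were 20.2% ± 5.82 (SD, n = 5) and 95.4% ± 1.82 (SD, n = 4), a difference of 75.3 percentage points.

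**Figure D3:**
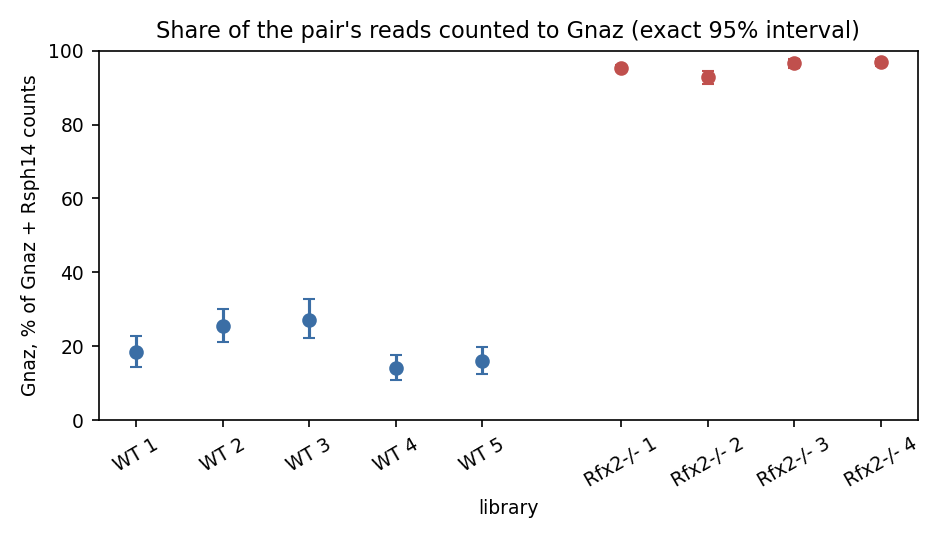
Gnaz counts as a percentage of the counts of Gnaz and Rsph14 together in each library, with exact 95% binomial intervals. The wild type libraries lie between 14.0% and 27.2% and the knockout libraries between 92.9% and 96.9%.

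Whether Gnaz is high where Rsph14 is low among mice of a single genotype was not tested, since there were 5 and 4 animals and no correlation was computed over fewer than 6. Wild type replicate 4 had the lowest Gnaz and the highest Rsph14 of its genotype. Wild type replicate 3 had the lowest Rsph14 and the second highest Gnaz, and replicate 2 had the highest Gnaz and the second lowest Rsph14. Among the knockout libraries, replicate 2 combined the lowest Gnaz with the highest Rsph14, whereas replicate 3 had the lowest Rsph14 and the second lowest Gnaz. Knockout replicate 2 is the library that stood apart by exon length, and the part of this in its place in the order was not tested. Several of these neighbours in order did not differ beyond counting error. The Poisson intervals of the Gnaz counts overlapped between wild type replicates 2 and 3, at 76.9 to 116 and 61.7 to 97.4. The coefficient of variation between libraries was 20.3% for Gnaz in wild type, where counting alone gives 11.9%, and 24.2% in Rfx2-/-, where counting gives 2.95%. For Rsph14 it was 25.1% against 5.89% in wild type and 22.4% against 13.9% in Rfx2-/-, so that counting made up a larger part of the spread wherever a gene was low.

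The differences were as large without the libraries that stood apart. Without Rfx2-/- replicate 2 the log2 fold changes were 3.84 for Gnaz and -2.88 for Rsph14, and without the deeper Rfx2-/- replicate 1 they were 3.72 and -2.83. Without wild type replicate 3 they were 3.74 and -2.88. The share of the counts belonging to Gnaz still differed by 77.0 percentage points between genotypes without wild type replicate 3 and by 76.1 without Rfx2-/- replicate 2.

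The nearest tested genes on each side of the pair were next compared. They lay 308 to 3672 kb away at lower coordinates and 4.47 to 485 kb away at higher coordinates. Zwint, Ipmk, Cisd1 and Ube2d1 were 2283 kb or more from the pair, so they say little about its surroundings. Of the 10 nearest tested genes, 5 on each side, 2 fell and 0 rose in edgeR, where 4.51% of all tested genes were called in either direction. At an unadjusted p under 0.05, 4 were lower and 2 higher, and DESeq2 called 3 lower and 0 higher. The median log2 fold change of the 10 was -0.10, with a range from -2.02 to 0.60. Rab36, which encodes a small GTPase of membrane traffic, is read away from Rsph14 and starts 4.47 kb beyond its start site. It had 33.6, 34.8, 32.4, 27.4 and 30.3 CPM in wild type replicates 1 to 5 and 12.4, 4.01, 8.18 and 6.28 CPM in the knockout libraries, without overlap. Its log2 fold change was -2.02 (SE 0.27, edgeR adjusted p 3.16e-04), and it therefore moved in the direction of Rsph14 and not of Gnaz.

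Pcdh15, which encodes a protocadherin of hair cell tip links and lies 308 kb from the pair on the other side, fell from 3.54 ± 0.512 CPM (SD, n = 5) to 1.06 ± 0.483 CPM (SD, n = 4). Its log2 fold change was -1.68 (SE 0.29, edgeR adjusted p 0.00247), and the call was lost without Rfx2-/- replicate 3 or 4, with adjusted p up to 0.0146. Bcr, known as a fusion partner of Abl1 and 28.0 kb away, averaged 32.2 CPM in wild type against 15.8 CPM in Rfx2-/- and was not called (log2 fold change -1.02, SE 0.27, edgeR adjusted p 0.0295), although it was the third gene that DESeq2 called lower. The log2 fold changes of the other genes were 0.60 for Zwint, 0.53 for Snrpd3, 0.39 for Cisd1, 0.17 for Ube2d1, -0.01 for Ipmk, -0.18 for Gucd1 and -0.42 for Specc1l, with edgeR adjusted p of 0.106 or more.

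Other genes that overlap on opposite strands were counted in the same way, as a description. The annotation holds 1530 pairs of tested genes whose spans overlap on opposite strands. In 6 of them both genes were called lower, in 1 both were called higher, and in 87 a single gene was called. Of all tested genes 3.68% were called lower and 0.826% higher. Gnaz and Rsph14 were chosen with this same contrast between genotypes already seen. No other pair had a gene called lower and its partner higher, so that the count with them was 1 of 1530 (0.0654%). Nothing is read from that count, which was 9 at an adjusted p of 0.05 with no fold limit and 2 when low counts were not filtered, with total counts as library size, or without wild type replicate 1 or 2 or Rfx2-/- replicate 1 or 3. Gnaz and Rsph14 differed by 6.50 in log2 fold change, against a median absolute difference of 0.36 over all pairs, and only Rgl1 and Apobec4 differed by more (7.95), with Apobec4 alone called. Nothing is read from this order either, because the contrast that gives it served to choose the pair.

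Gnaz was next set beside the other G protein alpha subunits. None of the 13 others tested was called in edgeR or DESeq2, where 4.51% of all tested genes were called in edgeR, and 2 were lower and 1 higher in edgeR at an unadjusted p under 0.05. Their log2 fold changes lay between -0.50 and 0.45, with a median of -0.10 beside 0.03 over all tested genes. The lowest unadjusted p-values belonged to Gnao1 (-0.50, edgeR adjusted p 0.0702), Gnai3 (0.43, edgeR adjusted p 0.153) and Gna11 (-0.29, edgeR adjusted p 0.171). In CPM per kb Gnaz ranked 10 of 16 alpha subunit genes in every wild type library, and it ranked 3, 3, 4 and 3 in Rfx2-/- replicates 1 to 4, behind Gnai2 and Gnai3 in each. Gnaz transcripts made up 1.75% ± 0.460 (SD, n = 5) of the summed CPM per kb of the Gi family in wild type, and 20.2%, 8.22%, 14.1% and 20.8% in the knockout libraries. The lowest of these shares, in Rfx2-/- replicate 2, was still above the highest in wild type, 2.54%.

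**Figure D4:**
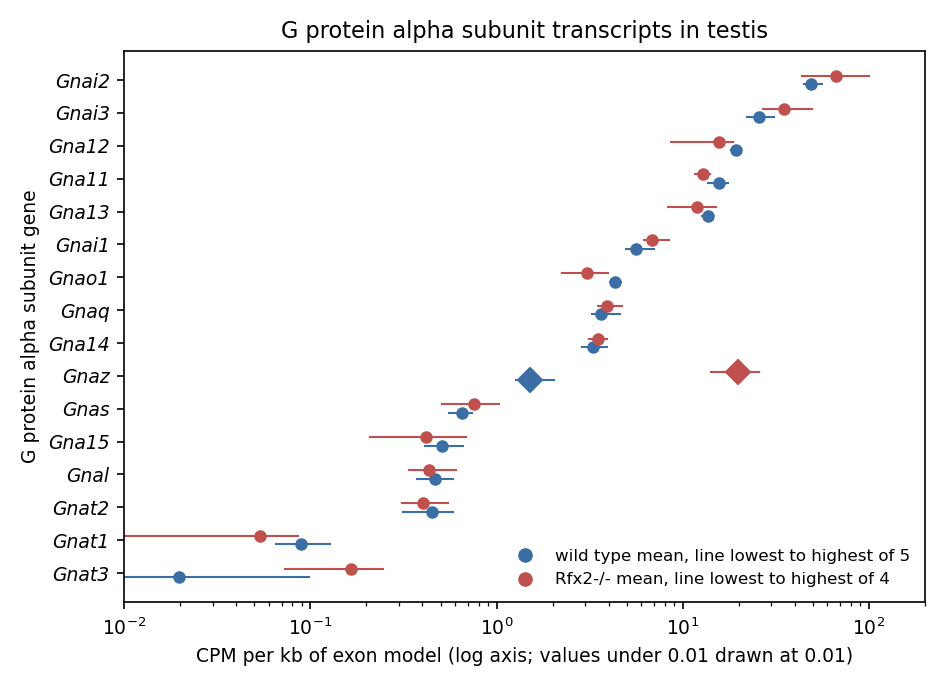
Mean CPM per kb of exon (log axis) of 16 G protein alpha subunit genes in wild type (blue) and Rfx2-/- (red), with lines from the lowest to the highest library and diamonds for Gnaz. Gnaz moves from 1.504 to 19.7 CPM per kb, whereas the genotypes overlap or lie near each other for the other subunits.

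Most of the other G protein signalling genes listed were not called. The lists cover such signalling in general and not that of Gαz alone. Over 5 lists of G protein signalling genes with 54 tested genes, 3 were called lower and 2 higher, or 9.26% beside 4.51% of all genes, with a median log2 fold change of -0.02. The count of called genes was 2 instead of 5 without Rfx2-/- replicate 4 and 3 without wild type replicate 2 or 5. Among the 14 tested RGS genes 2 were lower and 1 higher, with a median of -0.09. Rgs7, which encodes a GTPase-activating protein for Gi and Go subunits that works in complex with Gnb5, had 0.153, 0.232, 0.399, 0.959 and 0.546 CPM in wild type replicates 1 to 5 and 3.49, 6.75, 4.36 and 7.33 CPM in the knockout libraries. It rose by a log2 fold change of 3.55 ± 0.41 (SE) and an edgeR adjusted p of 9.63e-05, although its level stayed low.

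Rgs19, of the subfamily that acts on Gαz, changed the opposite way. Its wild type values were 14.5, 12.5, 10.4, 12.9 and 14.1 CPM and its knockout values 6.11, 7.09, 6.34 and 5.36 CPM, a log2 fold change of -1.05 ± 0.16 (SE) and an edgeR adjusted p of 9.4e-04. The call was lost with total counts as library size or without Rfx2-/- replicate 4. Rgs17 did not differ detectably (log2 fold change 0.09, SE 0.31, edgeR adjusted p 0.870), and Rgs20 was too low to be tested, with means of 0.399 and 0.398 CPM. Rgs22, a testis-enriched RGS gene, fell from 406 ± 101 CPM (SD, n = 5) to 154 ± 49.7 CPM (SD, n = 4), with a log2 fold change of -1.40 ± 0.26 (SE) and an edgeR adjusted p of 0.00363. Its call was lost without wild type replicate 2, 4 or 5 or Rfx2-/- replicate 4.

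Of the 12 tested beta and gamma subunits 1 was called. Gng3, a gamma subunit known from neurons, rose from 1.97 ± 0.291 CPM (SD, n = 5) to 4.16 ± 0.622 CPM (SD, n = 4), with a log2 fold change of 1.08 ± 0.19 (SE) and an edgeR adjusted p of 0.00324. It was not called without wild type replicate 2, 4 or 5 or Rfx2-/- replicate 4. Its span overlaps Bscl2 on the other strand. The median of this list was 0.32. Among 9 tested adenylyl cyclases 1 was called, with a list median of -0.16. This list covered the whole family and was not limited to cyclases that Gαz inhibits. Adcy1, a calcium-stimulated cyclase, had 6.58, 8.91, 4.65, 9.14 and 6.47 CPM in wild type replicates 1 to 5 and 1.79, 0.468, 1.64 and 1.11 CPM in the knockout libraries. Its log2 fold change was -2.47 (SE 0.34, edgeR adjusted p 4.13e-04).

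None of the 6 tested chaperones and dissociation regulators of alpha subunits was called in edgeR or DESeq2, with 2 lower and 0 higher in edgeR at an unadjusted p under 0.05 and a list median of -0.15. Rap1gap, a GTPase-activating protein for Rap1 that can bind Gαz, had a log2 fold change of -0.99 ± 0.17 (SE) and an edgeR adjusted p of 0.00196, just inside the limit of 2-fold, and was called under 3 of 13 alternatives. The alpha subunit chaperone Ric8a had -0.51 (edgeR adjusted p 0.0484) and Gpsm3 0.53 (edgeR adjusted p 0.187).

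Rsph14 was not alone among radial spoke genes. Of the 19 other radial spoke genes tested 6 were called lower and 0 higher, as also in DESeq2, where 3.68% of all tested genes were called lower and 0.826% higher. There were 12 lower and 1 higher in edgeR at an unadjusted p under 0.05. The median log2 fold change was -0.54 beside 0.03 over all tested genes and -0.76 over 8 elongating spermatid markers, of which 6 were lower at an unadjusted p under 0.05, and the part of these cells in the decrease was not tested. Lrrc23 had the largest decrease, from 115 to 139 CPM in the wild type libraries to 0.458 to 1.06 CPM in the knockout libraries, a log2 fold change of -7.28 (edgeR adjusted p 3.41e-09). Rsph9, a component of the spoke head, had -5.69 (edgeR adjusted p 6.21e-09), Iqub -4.86 (edgeR adjusted p 1.29e-07) and Maats1, now Cfap91 and placed at the spoke base, -3.02 (edgeR adjusted p 2.91e-07). The log2 fold changes of these 4 were below that of Rsph14, a difference that was not tested. Smaller decreases were found for Rsph10b, with -1.64 (edgeR adjusted p 7.07e-05), and for Dnajb13, a co-chaperone within the spoke, with -1.35 (edgeR adjusted p 9.04e-04). The spans of Rsph9, Rsph10b and Dnajb13 overlap other genes. All 6 were called under each of the 13 alternatives.

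**Figure D5:**
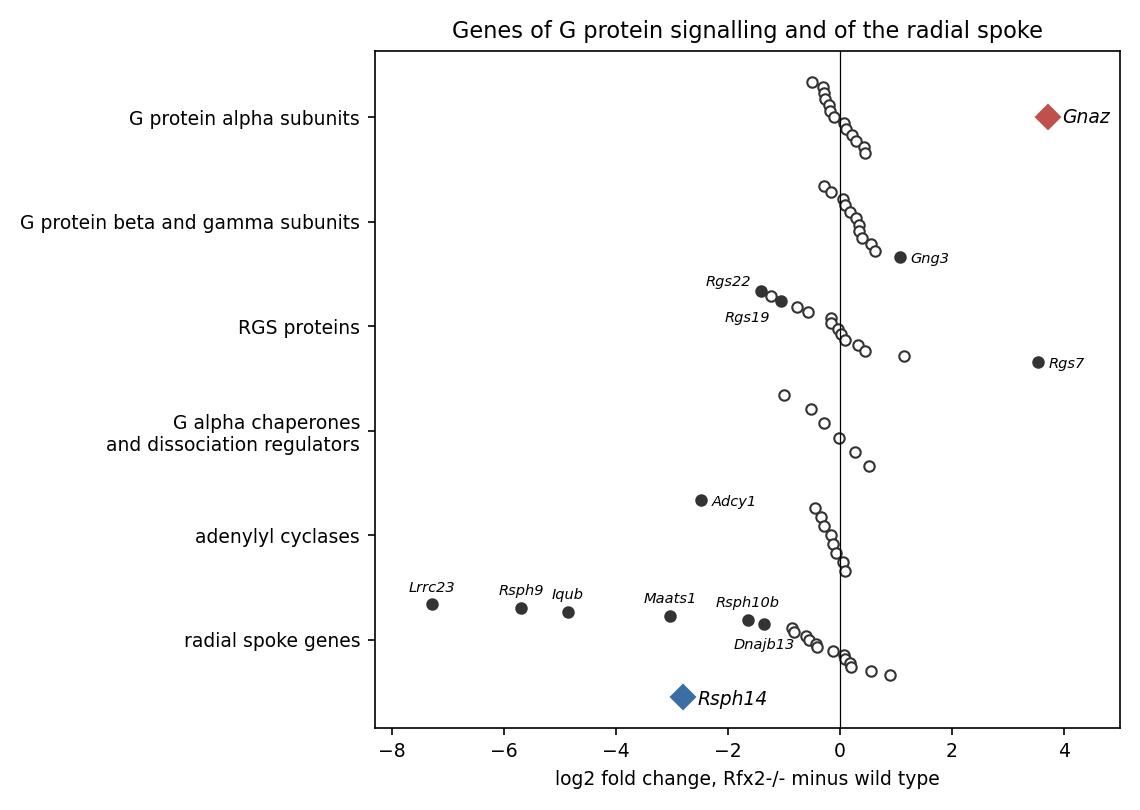
Log2 fold change between Rfx2-/- and wild type of the tested genes of 5 lists of G protein signalling and 1 of the radial spoke, with filled points for genes called and diamonds for Gnaz and Rsph14. Gnaz, at 3.71, lies outside the range of the other alpha subunits, and Rsph14, at -2.79, lies among the lower radial spoke genes.

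The genes with the most similar profiles were sought over the 9 libraries by the root mean square difference of log2 CPM, with each gene centred on its own wild type mean, over 12828 genes. Because they were picked for likeness over these same libraries, a shared order of libraries follows from the choice. The nearest to Gnaz was Tnfrsf21, which encodes death receptor 6, with a difference of 0.32. It had 6.50, 6.20, 9.44, 8.63 and 6.71 CPM in wild type replicates 1 to 5 and 95.2, 65.4, 98.1 and 110 CPM in the knockout libraries. Its lowest knockout value was in replicate 2, as for Gnaz, but its lowest wild type value was in replicate 2, where Gnaz was highest. The other genes among the 5 nearest had differences of 0.50 to 0.53. The nearest to Rsph14 was Arl13a, which encodes an ARL-family small GTPase and overlaps Nox1, with a difference of 0.15. Its wild type values were 15.5, 15.2, 8.78, 15.7 and 14.7 CPM and its knockout values 2.16, 2.54, 1.23 and 1.64 CPM. In Arl13a as in Rsph14 wild type replicate 3 was the lowest of its genotype, and Rfx2-/- replicate 2 was the highest and replicate 3 the lowest of the knockout libraries. The next were 1700012B09Rik, at 0.23, and Cfap70, which encodes an axonemal protein, also at 0.23.

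Markers of the cell types in which Gnaz is known, or which a testis also holds, were read beside the pair. Of 6 neuronal markers none of the 4 tested was called in edgeR or DESeq2, with none at an unadjusted p under 0.05, their summed level was 48.5 to 62.8 CPM in wild type and 45.5 to 69.5 CPM in Rfx2-/-, nearly all of it Tubb3, and Snap25 and Nefl were near 0. Of 6 platelet markers none of the 4 tested was called in edgeR or DESeq2, with 1 higher at an unadjusted p under 0.05, the sums were 7.15 to 11.1 CPM and 7.92 to 14.4 CPM, and Ppbp and Gp9 were near 0. Of 5 endothelial markers 1, Vwf, was called lower, and the sums were 50.7 to 65.6 CPM and 14.0 to 48.1 CPM without overlap. Without Vwf the other 4 summed to 23.9 to 30.2 CPM in wild type and 11.5 to 35.9 CPM in Rfx2-/-. Of 8 elongating spermatid markers none was called in edgeR but 6 were lower at an unadjusted p under 0.05, DESeq2 called 3 lower, and the sums were 6943 to 15230 CPM and 5431 to 9746 CPM. Of 6 round spermatid markers 1, Spata18, was called lower, 3 were higher at an unadjusted p under 0.05 in edgeR, and the median log2 fold change was 0.17, with sums of 993 to 1559 CPM and 999.9 to 1242 CPM. The lists for spermatogonia (sums of 108 to 132 CPM in wild type and 96.9 to 129 CPM in Rfx2-/-), pachytene spermatocytes (4946 to 6333 and 5131 to 8936), Sertoli cells (1062 to 1324 and 1087 to 1565), Leydig cells (688 to 876 and 661 to 1030), peritubular cells (202 to 229 and 155 to 293), macrophages (90.8 to 122 and 95.2 to 121) and multiciliated cells (139 to 208 and 94.8 to 154) had no called gene in edgeR or DESeq2 and overlapping sums. At an unadjusted p under 0.05 in edgeR, 2 pachytene, 2 Sertoli, 1 Leydig, 1 peritubular and 1 macrophage marker were higher. By the same limit 2 of the 3 tested multiciliated markers, Foxj1 and Dynlrb2, were lower. These genes held nearly all of the multiciliated sum, and Scgb1a1 was near 0. The part of the spermatid, endothelial and multiciliated markers in the decrease of Rsph14 was not tested.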

How the data were processed

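Testis RNA was measured in 5 wild type and 4 Rfx2-/- mice, grouped by the genotype in the sample labels, and count columns were matched to mice by the animal number in their names. The authors deposited raw counts per Ensembl gene. Per the submitters' processing notes and the study's methods, TruSeq libraries were sequenced on an Illumina instrument, processed with CASAVA 1.8.2, aligned to GRCm38 with STAR 2.4 and counted with featureCounts 1.4.6 over merged exons of protein coding isoforms, leaving out reads with several positions and reads on exons of different genes. The methods differ among themselves on read length and aligner, and the use of strand is not given in the sources used here. This can move reads between genes on opposite strands wherever their exons, or introns and exons, overlap.

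Total counts were 13574764 to 28800855 per library. Within a genotype, pairs of libraries differed by a chi-square of at least 4.52 per gene, so that each was kept as a replicate. Every mouse was a separate animal. Names, spans and exon lengths came from GENCODE M21 (GRCm38), which held 96.6% of the gene IDs; promoter sequences came from RefSeq (GRCm38.p6), with entries for 1 gene of the pair.

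Counts as deposited were tested by quasi-likelihood in edgeR 4.0.16 (R 4.3.3; TMM, robust, filterByExpr). Genotype was the only term, and p-values were adjusted by Benjamini-Hochberg over 15613 genes. A gene was called at an adjusted p of 0.01 or less and more than 2-fold. CPM are TMM-scaled, and CPM per kb are divided by merged exon length. Deviations by exon length used a pseudocount of 0.5 CPM. No p is given for Gnaz and Rsph14. Exact binomial and Poisson intervals are at 95%. On simulated counts for 15613 genes under this comparison, 99 of 100 genes changed 4-fold and 99 of 100 changed 8-fold were recovered. There was 1 false call among 15413 unchanged genes. The changed genes were drawn from those above 2 CPM in wild type, so recovery of lower genes such as Rgs7 was not simulated. The simulated counts also held no deviation of single libraries, such as that by exon length.

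The pair, the 6 pathway lists and the 12 marker lists were chosen with earlier results of these data known. Named in the text were the pair, Rfx2, the 5 nearest tested genes on each side, each called gene of a pathway list or otherwise the 3 with the lowest unadjusted p, Rgs17, Rgs19 and Rgs20, genes from among the 5 with the nearest profiles to each (mean count of at least 50, prior count 2) and opposite-strand pairs with opposite calls. Rgl1 with Apobec4 and the marker genes named singly were picked after their values were seen. The result of a further pair is not reported here. Alternatives were DESeq2 1.42.0, RLE size factors, total counts, no filter, an adjusted p of 0.05 with no fold limit, and leaving out each library.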

Additional observations from a re-analysis of the deposited data

Results flagged for a closer look

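In groups of 4 or 5 libraries, the highest or lowest value was set against the others by Dixon's rule, which flags about 1 in 20 groups by chance, and 7 of 122 groups passed it. For Gnaz, wild type replicate 2 had 7.36 CPM where the other wild type libraries had 4.57 to 5.19 CPM. Arl13a, the gene with the profile nearest to Rsph14, had 8.78 CPM in wild type replicate 3 against 14.7 to 15.7 CPM. The same library was high for the neighbouring gene Zwint (77.3 CPM against 66.5 to 69.3 CPM), for the summed spermatogonia markers (132.0 CPM against 108 to 114 CPM) and for the summed Sertoli cell markers (1324 CPM against 1062 to 1071 CPM). It was low for the summed round spermatid markers, with 993 CPM against 1403 to 1559 CPM. The adenylyl cyclases summed to 199 CPM in Rfx2-/- replicate 2, where replicates 1, 3 and 4 had 521 to 536 CPM. Most of these sums came from Adcy10 alone, with a minimum of 158 CPM and a median of 421 CPM over the knockout libraries.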

How the results depend on the processing

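Over 13 alternatives the log2 fold change of Gnaz stayed between 3.59 and 3.85, that of Rsph14 between -2.88 and -2.63, and their difference between 6.31 and 6.72. Over 10 alternatives the difference in the Gnaz share stayed between 73.7 and 78.7 percentage points. DESeq2 called 211 genes higher, and an adjusted p of 0.05 with no fold limit called 1142 lower and 544 higher, 8 G protein signalling genes and 9 opposite-strand pairs with opposite calls. There were 2 such pairs without the filter and 2 with total counts, which also moved the median of all genes from 0.03 to 0.16 and called 483 genes lower and 191 higher. Leaving out a library gave 447 to 632 genes lower, 92 to 175 higher, 1 to 2 opposite pairs, 1 to 2 neighbouring genes called (1 without Rfx2-/- replicate 3 or 4) and 2 to 7 G protein signalling genes called (2 without Rfx2-/- replicate 4, 3 without wild type replicate 2 or 5), and the cause was not tested. The log2 fold change of Ipmk turned positive with no filter (0.0145) and with total counts (0.121), and ranged from -0.0200 to 0.0403 when a library was left out; that of Rgs17 ranged from -0.100 to 0.235. Of 377 values for 29 named genes, 353 kept direction and side of the threshold. No paired analysis was possible because the labels carry animal numbers only, and replicate numbers were given in order of accession. Within the pair, depth limits Rsph14 in Rfx2-/- most, with 34 to 110 counts.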
